A study of Mus musculus with 4 samples.

Results

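The genes described here are 41 interferon-stimulated genes of the mouse, a list of type I and interferon gamma targets chosen by symbol. All 41 were found among the 53819 symbols of the deposited table, and all 41 had enough reads to be tested. The DSS libraries came from C57Bl/6 wild-type mice given 3% dextran sulfate sodium (DSS), which damages the lining of the colon, and the water libraries from C57Bl/6 wild-type mice given water. Each group had 2 libraries, no allele or agent other than DSS is named, and the titles carry a tag, D6, that they do not define. The samples are labelled as primary colonic eosinophils, granulocytes of the intestinal wall, and poly-A RNA was sequenced. The age of the mice, the way the cells were isolated, and whether a library holds 1 mouse or a pool are not given in the sources used here.

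Interferons are secreted signals of antiviral and antibacterial defence. Type I interferons (interferon alpha and beta) bind the receptor encoded by Ifnar1 and Ifnar2, and the kinases Jak1 and Tyk2 then activate a complex containing STAT2 and IRF9 that binds the interferon-stimulated response element (ISRE). Interferon gamma, made mainly by T cells, NK cells and innate lymphoid cells, binds the receptor encoded by Ifngr1 and Ifngr2, and its signal reaches the gamma-activated site (GAS). The IFIT, OAS and MX genes are classical targets of the type I pathway, whereas guanylate-binding proteins (GBP), immunity-related GTPases (IRG) and the chemokines Cxcl9 to Cxcl11 respond strongly to interferon gamma. The overlap between both programmes is wide, and in the gut epithelium interferon lambda drives many of the same genes.

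Total counts ran from 33015634 to 34126329 in the DSS libraries and from 30985905 to 32041207 in the water libraries. Levels are CPM, the counts scaled to each library's size, on totals adjusted by the trimmed mean of M-values (TMM). The labelled cell type was not dominant by its markers: each library held far more of an epithelial transcript than of the eosinophil receptor Siglecf. Siglecf stood at 11.1 and 36.1 CPM in DSS replicates 1 and 2 and at 0.830 and 12.2 CPM in water replicates 1 and 2, while Epcam, an epithelial adhesion gene, stood at 328 and 678 CPM in DSS and at 804 and 524 CPM in water. In such bulk RNA, fewer cells of a type and less RNA per cell cannot be told apart.

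Most of the interferon-stimulated genes had lower mean levels in DSS, without any of them passing the test across all genes, and the size of this difference rested on DSS replicate 2. Of the 41 members, 33 had a log2 fold change (DSS over water) below 0 and 8 above 0, with a median of -0.55. Without DSS replicate 2, 24 of 41 lay below 0 and the median was -0.10, and without DSS replicate 1, 39 of 41 did and the median was -0.97. Summed over the members, the level was 2438 and 1387 CPM in DSS replicates 1 and 2 and 2325 and 2257 CPM in water replicates 1 and 2, so DSS replicate 1 was not below the water libraries by this measure. Their share of unscaled counts was 0.198% and 0.143% in DSS and 0.245% and 0.249% in water (replicates 1 and 2). By that share both DSS libraries lay below both water libraries. The TMM factor of DSS replicate 1 was 0.815. Immunoglobulin transcripts made up 31.8% and 8.31% of counts in DSS and 7.88% and 6.78% in water (replicates 1 and 2). Over all 18788 genes tested, 9549 (50.8%) lay below 0 and the median was -0.0095. In 17 members both DSS libraries lay below both water libraries, where 18.7% of all tested genes did so. In 2 members, Ifitm3 and Rsad2, the order was the opposite, with both DSS libraries on top, where 20.8% of all tested genes did so.

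No member was called at an adjusted p under 0.05 by edgeR's quasi-likelihood test, which called 0.016% of all tested genes (3 genes, all lower in DSS). The lowest adjusted p among the members was 0.471, for Oas1a. At an unadjusted p under 0.05 edgeR had 8 members lower in DSS, against 3.39% of all tested genes, and 0 members higher, against 5.06%. The 8 were Oas1a, Usp18, Ifi44, Tgtp1, Oasl1, Ifit1, Irgm1 and Irgm2. DESeq2 called 0 members, where it called 0.895% of genes lower and 1.65% higher, and limma-voom called 0 members and 0% of genes. Without a count filter edgeR called 2 members lower, Oas1a and Tgtp1, against 1.23% of genes. For a single gene in 2 + 2 libraries, the smallest p of a two-sided exact permutation test is 0.333. Whether replicates are separate mice is not labelled, so p-values here reflect only how these libraries vary, which may be technical.

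**Figure D1:**
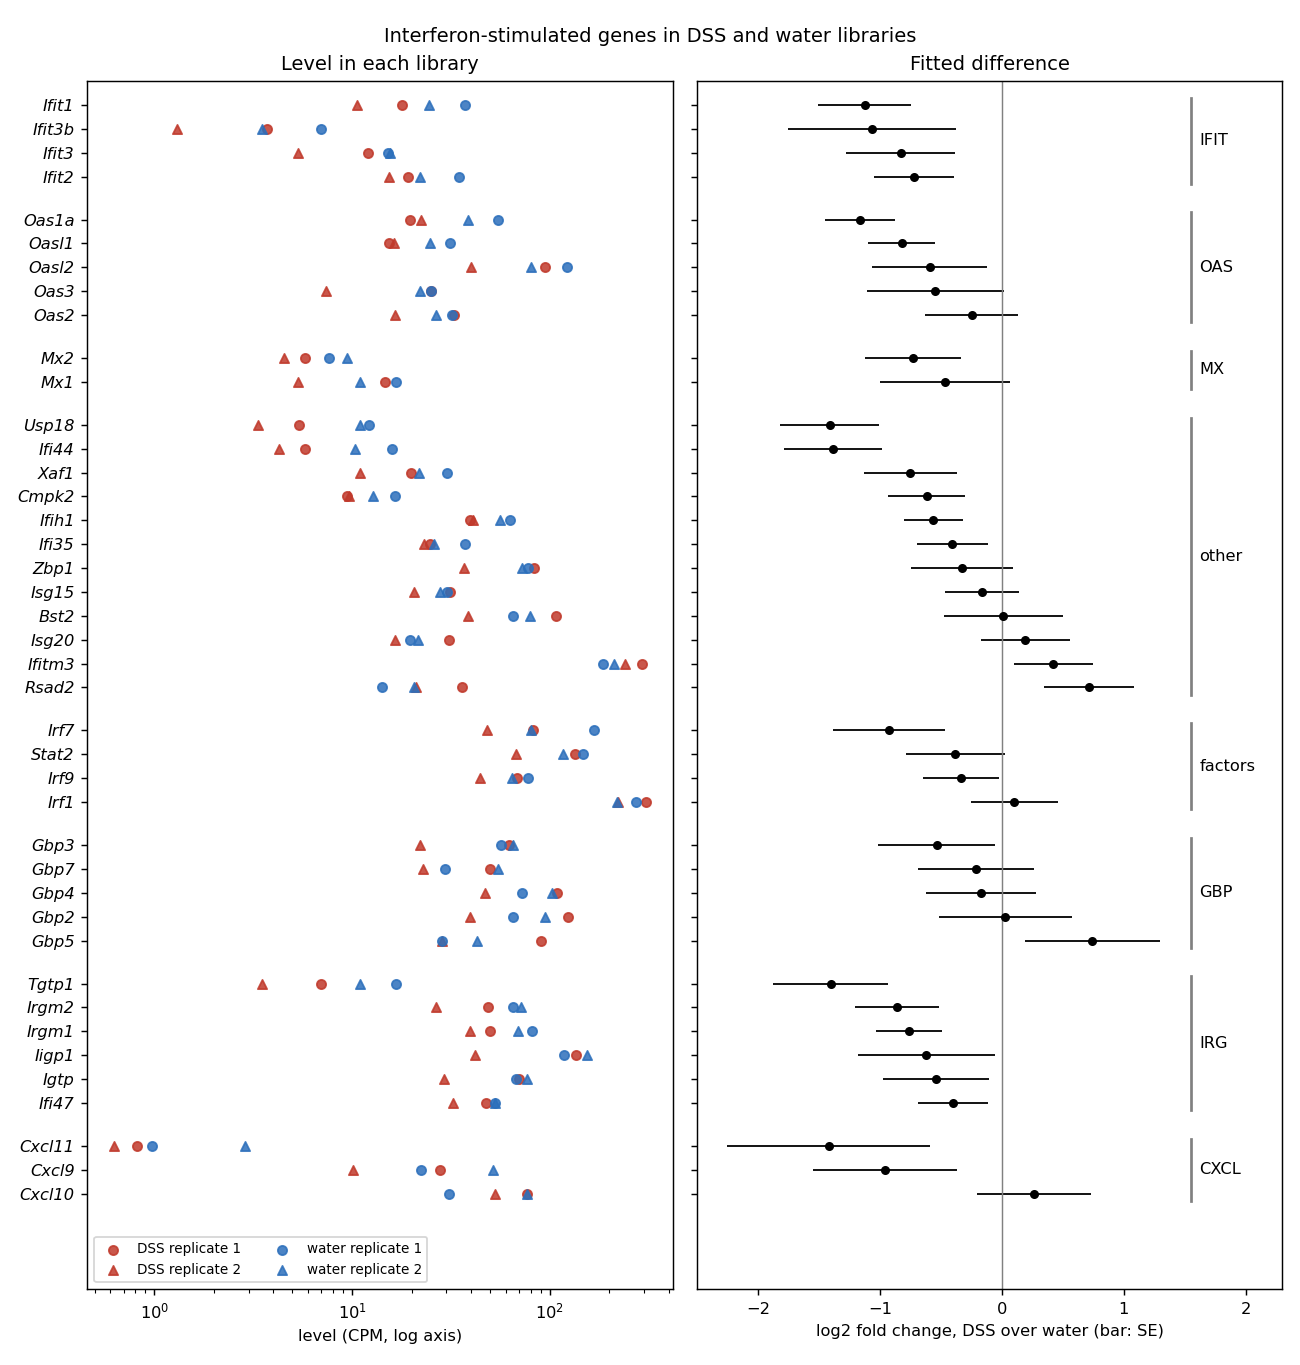
Left, the level of each member in each library (CPM, log axis; DSS red, water blue; circles replicate 1, triangles replicate 2). Right, the edgeR log2 fold change, DSS over water, with its standard error; 33 of 41 points lie below 0, and DSS replicate 2 is the lowest library for 32 of 41 members.

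The IFIT genes encode proteins with tetratricopeptide repeats that bind viral RNA and block its translation, and they lie side by side on chromosome 19 (Ifit1 from 34640871 to 34650009, plus strand, GRCm38). The ISRE core was found upstream of Ifit1, Ifit3 and Ifit3b and not of Ifit2 in the 250 bases searched. The lines below give 60 bases upstream of the annotated start of Ifit1 (chr19:34640769-34640828, plus strand), Ifit3 (chr19:34583364-34583423, plus strand), Ifit3b (chr19:34607760-34607819, plus strand), Oas1a (chr5:120907526-120907585, minus strand) and Isg15 (chr4:156200856-156200915, minus strand), from RefSeq on GRCm38.p6. Capitals mark matches to the ISRE core, GAAA, any 2 bases and GAAA, on either strand, and neighbouring matches overlap in Oas1a and Isg15.
Ifit1: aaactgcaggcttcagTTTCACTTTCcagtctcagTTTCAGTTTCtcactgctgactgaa
Ifit3: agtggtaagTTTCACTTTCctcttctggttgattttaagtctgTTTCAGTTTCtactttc
Ifit3b: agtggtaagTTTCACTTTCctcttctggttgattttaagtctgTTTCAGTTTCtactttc
Oas1a: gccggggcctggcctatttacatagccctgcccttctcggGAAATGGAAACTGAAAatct
Isg15: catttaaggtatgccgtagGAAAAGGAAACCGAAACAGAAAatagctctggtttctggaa
The Ifit3 and Ifit3b stretches were identical over 60 of 60 bases, and each held 2 matches, as did Ifit1 and Oas1a, while Isg15 held 3.

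All 4 IFIT genes had lower mean levels in DSS, with a median log2 fold change of -0.95 (-0.53 without DSS replicate 2 and -1.54 without DSS replicate 1). In 3 of them both DSS libraries lay below both water libraries, where 18.7% of all tested genes did so. Ifit1, which recognises RNA that lacks the host cap modification, had 17.9 and 10.6 CPM in DSS replicates 1 and 2, against 37.5 and 24.5 CPM in water replicates 1 and 2. Both DSS libraries thus lay below both water libraries, and the log2 fold change was -1.12 (SE 0.38, edgeR adjusted p = 0.536, unadjusted p = 0.0252). Ifit2, whose product promotes apoptosis as well as RNA binding, had 19.1 and 15.3 CPM in DSS and 34.6 and 22.2 CPM in water, with -0.72 as log2 fold change (SE 0.33, adjusted p = 0.646). Ifit3 had 12.0 and 5.35 CPM in DSS and 15.2 and 15.6 CPM in water, where the water libraries lay close together. Its log2 fold change was -0.83 (SE 0.45, edgeR adjusted p = 0.702), and -0.36 without DSS replicate 2.

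Ifit3b is a copy of Ifit3, and reads can be split between them: 51.2% of the 50-base stretches of Ifit3 transcripts occur in another gene's transcripts, all of them in those of Ifit3b. Ifit3b had 3.72 and 1.31 CPM in DSS and 6.99 and 3.50 CPM in water, so that the groups overlapped. Summed over both copies, which no split of the counted reads between them can alter, the level was 15.7 and 6.66 CPM in DSS and 22.2 and 19.1 CPM in water. The sum was lower in both DSS libraries than in both water libraries.

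The OAS genes encode sensors of double-stranded RNA. OAS1, OAS2 and OAS3 make a short oligoadenylate that activates RNase L, whereas mouse OASL1 lacks that activity and restrains translation of Irf7. The group sits on chromosome 5 (Oas1a from 120896256 to 120907521, minus strand, GRCm38). All 5 had a log2 fold change below 0, with a median of -0.59 (-0.10 without DSS replicate 2, where 3 of 5 lay below 0). In 2 of them both DSS libraries lay below both water libraries, where 18.7% of all tested genes did so.

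Oas1a had 19.6 and 22.3 CPM in DSS and 54.9 and 38.8 CPM in water, means of 20.9 ± 1.89 and 46.8 ± 11.4 CPM (SD, n = 2 each). The DSS libraries stood close together and well under either water library, 2.24-fold lower in the fit (log2 fold change -1.16, SE 0.29, edgeR adjusted p = 0.471). Of its 50-base stretches 57.6% also occur in Oas1g, its neighbour. The sum of both was 26.9 and 31.8 CPM in DSS and 111 and 64.9 CPM in water, so the lower level in DSS did not depend on how the counted reads were divided between them. Whether reads that match several genes were counted at all is not stated. Oasl1 gave the same picture, with 15.3 and 16.4 CPM in DSS and 31.1 and 24.8 CPM in water (log2 fold change -0.82, SE 0.28, adjusted p = 0.534).

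The other OAS genes differed more between the DSS libraries than between groups. Oasl2, a catalytically active relative of Oasl1, had 94.7 and 40.1 CPM in DSS and 122 and 80.5 CPM in water. Oas2 had 32.9 and 16.6 CPM in DSS and 32.2 and 26.6 CPM in water, and Oas3 had 25.1 and 7.40 CPM in DSS and 25.2 and 22.2 CPM in water. For Oas3, DSS replicate 1 lay within the water range, and for Oas2 just above it. Without DSS replicate 2 the log2 fold changes of Oas2 and Oas3 turned to 0.16 and 0.084, against -0.25 and -0.55 with all libraries, while those of Oas1a and Oasl1 ranged over the fits that left out a library from -1.38 to -0.93 and from -0.97 to -0.68.

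Where intact, Mx1 and Mx2 encode dynamin-like GTPases that trap viral components in the nucleus or cytoplasm, and both lie on chromosome 16. Mx1 had 14.6 and 5.35 CPM in DSS and 16.7 and 10.9 CPM in water, with overlapping groups and a log2 fold change of -0.47 (0.086 without DSS replicate 2). Mx2 had 5.77 and 4.52 CPM in DSS and 7.62 and 9.43 CPM in water, with -0.73 as log2 fold change (SE 0.39, edgeR adjusted p = 0.702). Mx2 was lower in both DSS libraries. The GENCODE annotation lists Mx2, like Cxcl11 below, as a polymorphic pseudogene, a gene that is intact in some strains. It lists Mx1 as protein-coding. Whether the C57Bl/6 alleles of Mx1, Mx2 and Cxcl11 are intact was not examined.

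Among the 12 other interferon-stimulated genes, 6 had both DSS libraries below both water libraries and 2 had them above. Of all tested genes, 18.7% and 20.8% did so. Usp18 encodes the protease that removes ISG15 from proteins and blocks the type I receptor, a negative feedback step. It had 5.40 and 3.33 CPM in DSS and 12.2 and 11.04 CPM in water, 2.66-fold lower (log2 fold change -1.41, SE 0.41, edgeR adjusted p = 0.492, unadjusted p = 0.0132). Ifi44, a GTPase-like antiviral gene, had 5.81 and 4.30 CPM in DSS and 15.98 and 10.3 CPM in water (log2 fold change -1.38, SE 0.40, adjusted p = 0.493). For Usp18 the gap between groups was larger than the spread within either, while for Ifi44 the water libraries lay further apart than that gap, and neither gene passed the test over all genes.

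Ifih1, which encodes the cytoplasmic RNA sensor MDA5, had 39.4 and 40.8 CPM in DSS and 62.7 and 55.7 CPM in water. Its replicates agreed closely, and its log2 fold change was -0.56 (SE 0.24, edgeR adjusted p = 0.623). Xaf1, a pro-apoptotic gene, had 19.9 and 10.98 CPM in DSS and 30.1 and 21.8 CPM in water, and Cmpk2, a mitochondrial nucleotide kinase, had 9.42 and 9.62 CPM in DSS and 16.4 and 12.7 CPM in water. The groups were also apart for Ifi35, at 24.7 and 23.1 CPM in DSS and 37.3 and 25.96 CPM in water; 16.8% of its exon bases overlap the antisense gene Gm11626, and strand-specific counting is not stated.

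Not all antiviral genes lay on that side. Rsad2 encodes viperin, an enzyme that makes a chain-terminating nucleotide, and had 36.0 and 21.1 CPM in DSS and 14.3 and 20.6 CPM in water (log2 fold change 0.71, SE 0.37, edgeR adjusted p = 0.685). Its higher DSS library stood well above the rest and the other just above water replicate 2. Ifitm3 encodes a membrane protein that blocks virus entry, and had 293 and 239 CPM in DSS and 186 and 211 CPM in water (log2 fold change 0.42, SE 0.33, adjusted p = 0.802). Cmpk2 and Rsad2 are neighbours on chromosome 12, and their log2 fold changes, -0.61 and 0.71, had opposite signs under each of the 12 alternatives tabulated for single genes.

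For the remaining 4 of these genes the groups overlapped. Isg15, the ubiquitin-like modifier, had 31.4 and 20.6 CPM in DSS and 30.3 and 27.97 CPM in water, and Isg20, an exonuclease, had 30.9 and 16.4 CPM in DSS and 19.7 and 21.7 CPM in water. Bst2, which encodes tetherin and is also abundant in plasmacytoid dendritic cells and plasma cells, had 107 and 38.8 CPM in DSS and 65.4 and 79.5 CPM in water. Zbp1, a sensor of Z-form nucleic acid that triggers cell death, had 83.0 and 36.6 CPM in DSS and 77.4 and 72.6 CPM in water. In each, DSS replicate 1 was the highest library and DSS replicate 2 the lowest, and the direction of the log2 fold change turned without a DSS library.

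The transcription factors of the pathway showed overlapping groups throughout. Irf7, the factor that amplifies interferon alpha production, had 81.8 and 48.2 CPM in DSS and 167 and 80.0 CPM in water. Water replicate 1 stood apart from the other libraries there, and the log2 fold change was -0.93 (SE 0.46, edgeR adjusted p = 0.677; -0.34 without water replicate 1). Irf9 and Stat2, which belong to the ISRE-binding complex, had log2 fold changes of -0.34 (SE 0.31) and -0.38 (SE 0.41), which became -0.058 and 0.033 without DSS replicate 2. Irf1, the factor that acts mainly downstream of interferon gamma, had 308 and 221 CPM in DSS and 273 and 219.8 CPM in water, a log2 fold change of 0.10 (SE 0.35).

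The guanylate-binding proteins coat intracellular bacteria and parasites and help to open the vacuoles that hold them. Gbp2, Gbp3, Gbp5 and Gbp7 lie in a row on chromosome 3 (Gbp5 from 142493978 to 142522344, plus strand, GRCm38) and Gbp4 on chromosome 5. The groups overlapped for all 5, and the median log2 fold change was -0.17 (0.31 without DSS replicate 2 and -0.92 without DSS replicate 1). Gbp2 had 123 and 39.5 CPM in DSS and 64.9 and 94.4 CPM in water, a log2 fold change of 0.028 (SE 0.55). Gbp5, which promotes inflammasome activation, had 90.8 and 28.7 CPM in DSS and 28.5 and 42.9 CPM in water, with 0.74 as log2 fold change (SE 0.55, edgeR adjusted p = 0.785). DSS replicate 1 had the highest level of both, and DSS replicate 2 stood with or below the water libraries.

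Gbp3 had 61.9 and 22.1 CPM in DSS and 56.8 and 64.8 CPM in water. Gbp4 had 109 and 46.8 CPM in DSS and 72.7 and 103 CPM in water, and Gbp7 had 49.9 and 22.7 CPM in DSS and 29.5 and 54.7 CPM in water. DSS replicate 2 was the lowest library for all of these 3. Leaving out a library turned the direction of every GBP gene: without DSS replicate 1 the log2 fold changes of Gbp2 and Gbp5 were -1.03 and -0.33, and without DSS replicate 2 those of Gbp3, Gbp4 and Gbp7 were 0.025, 0.31 and 0.24. Gbp7 shares 12.7% of its 50-base stretches with other transcripts, mostly those of the pseudogene Gm43802, and the other 4 genes share less.

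The immunity-related GTPases are relatives of the guanylate-binding proteins that attack the membranes of parasite vacuoles, and the Irgm proteins keep the others inactive on the cell's own membranes. Igtp, Irgm2 and Tgtp1 share an upstream arrangement in which a GAS match lies next to an ISRE match. In the 250 bases searched, Irgm1 had 2 ISRE matches and 0 GAS matches, Ifi47 had neither, and Iigp1 had no promoter entry. Outside this family, Bst2 had a GAS match that overlaps an ISRE match. Oas1a had a GAS match upstream of the stretch printed above. The lines below give stretches upstream of the annotated starts of Igtp (chr11:58199496-58199555, plus strand), Irgm2 (chr11:58214887-58214946, plus strand) and Tgtp1 (chr11:48992292-48992351, minus strand), with Gbp7 (chr3:142530226-142530295, plus strand) and Cxcl10 (chr5:92349065-92349124, minus strand) for comparison, again from RefSeq on GRCm38.p6. Capitals mark ISRE matches and matches to the GAS core, TTC, any 3 bases and GAA, which reads the same on both strands.
Igtp: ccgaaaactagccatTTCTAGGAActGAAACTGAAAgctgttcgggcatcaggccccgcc
Irgm2: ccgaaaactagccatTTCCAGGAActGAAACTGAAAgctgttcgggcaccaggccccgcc
Tgtp1: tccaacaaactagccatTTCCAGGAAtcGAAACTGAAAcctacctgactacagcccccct
Gbp7: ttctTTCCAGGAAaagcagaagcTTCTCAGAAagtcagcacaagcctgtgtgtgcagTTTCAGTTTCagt
Cxcl10: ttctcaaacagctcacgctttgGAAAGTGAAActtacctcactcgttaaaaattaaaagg
In Igtp, Irgm2 and Tgtp1, 2 bases separate the GAS match from the ISRE match, while Gbp7 holds 2 GAS matches and 1 ISRE match and the Cxcl10 stretch holds an ISRE match alone. The promoter table held 33 of the 41 members, and the 250 bases upstream of their starts were searched, counting any annotated start. The ISRE core was found for 18 of the 33, for 5 of 8 IFIT, OAS and MX genes and for 9 of 11 GBP, IRG and CXCL genes, against 3.46% of 27025 symbols. The GAS core was found for 10 of the 33, for 2 of 8 and for 5 of 11, against 8.13% of symbols. A match is a string of letters, and binding was not measured.

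All 6 IRG genes had lower mean levels in DSS, with a median log2 fold change of -0.69 (-0.32 without DSS replicate 2 and -1.35 without DSS replicate 1). In 4 of them both DSS libraries lay below both water libraries, where 18.7% of all tested genes did so. Tgtp1 had 6.96 and 3.50 CPM in DSS and 16.7 and 10.9 CPM in water, 2.64-fold lower (log2 fold change -1.40, SE 0.47, edgeR adjusted p = 0.534, unadjusted p = 0.0242). It shares 79.4% of its 50-base stretches with its copy Tgtp2. The sum of both copies was 28.3 and 13.2 CPM in DSS and 47.2 and 53.9 CPM in water, again with both DSS libraries below both water libraries.

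Irgm1, on chromosome 11 (48861968 to 48871683, minus strand), had 49.7 and 39.3 CPM in DSS and 81.4 and 69.3 CPM in water, means of 44.5 ± 7.37 and 75.3 ± 8.58 CPM (SD, n = 2 each). Its groups stood further apart than the libraries within either, with a log2 fold change of -0.76 (SE 0.27, edgeR adjusted p = 0.543). Irgm2 had 48.7 and 26.6 CPM in DSS and 65.1 and 71.3 CPM in water (log2 fold change -0.86, SE 0.35, adjusted p = 0.582). Ifi47 had 47.6 and 32.5 CPM in DSS and 52.8 and 52.9 CPM in water, where DSS replicate 1 came within a small margin of the water libraries.

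Igtp and Iigp1 had overlapping groups. Igtp, whose annotated exons share 162 bases with those of Irgm2, had 69.7 and 29.1 CPM in DSS and 67.1 and 76.8 CPM in water. Iigp1 had 136 and 41.7 CPM in DSS and 119 and 154 CPM in water, a log2 fold change of -0.62 that became -0.0056 without DSS replicate 2. In both, DSS replicate 1 lay within the water range and DSS replicate 2 far below it.

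Cxcl9, Cxcl10 and, where intact, Cxcl11 encode the ligands of the receptor CXCR3, which draws T cells and NK cells to inflamed tissue. The 3 genes are neighbours on chromosome 5 (Cxcl10 from 92346638 to 92348889, minus strand). Cxcl9, the ligand most dependent on interferon gamma, had 27.99 and 10.2 CPM in DSS and 22.4 and 51.7 CPM in water, with -0.96 as log2 fold change (SE 0.59, edgeR adjusted p = 0.746; -0.23 without water replicate 2 and -0.41 without DSS replicate 2). Cxcl10 had 76.3 and 53.0 CPM in DSS and 30.9 and 76.9 CPM in water, a log2 fold change of 0.26 (SE 0.47). In both genes the water libraries differed from each other by more than the group means did, with water replicate 2 the highest library.

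Cxcl11 was near the lower end of what was measured, with 22 and 22 reads in DSS replicates 1 and 2 and 33 and 99 reads in water replicates 1 and 2. These were 0.819 and 0.626 CPM in DSS and 0.978 and 2.89 CPM in water (log2 fold change -1.42, SE 0.83, edgeR adjusted p = 0.732; -0.43 without water replicate 2). The groups did not overlap, though DSS replicate 1 and water replicate 1 were close. In addition, 41.7% of its exon bases overlap the pseudogene Gm2673 on the other strand, so its reads may not all be its own.

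Set side by side, the IFIT, OAS and MX genes lay below 0 in 11 of 11 cases, with a median log2 fold change of -0.73, and 6 had groups that did not overlap. The GBP, IRG and CXCL genes lay below 0 in 11 of 14 cases, with a median of -0.54, and 5 had groups that did not overlap. Among all tested genes, 50.8% lay below 0, and in 18.7% both DSS libraries lay below both water libraries. Within the second set the median was -0.69 for the 6 IRG genes, -0.17 for the 5 GBP genes and -0.96 for the 3 CXCL genes. By the median log2 fold change alone, the IRG genes, with all 6 below 0, were nearer to the IFIT genes, at -0.95, than to the GBP genes. The difference between both sets was not tested.

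For each gene the log2 level was centred on its mean over the 4 libraries, with 0.1 CPM added. The median of the IFIT, OAS and MX genes was 0.11 and -0.94 in DSS replicates 1 and 2 and 0.60 and 0.24 in water replicates 1 and 2. That of the GBP, IRG and CXCL genes was 0.34 and -0.82 in DSS and 0.058 and 0.44 in water. The GBP, IRG and CXCL median minus the IFIT, OAS and MX median was thus 0.23 and 0.12 in DSS and -0.55 and 0.20 in water, with water replicate 1 the exception.

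**Figure D2:**
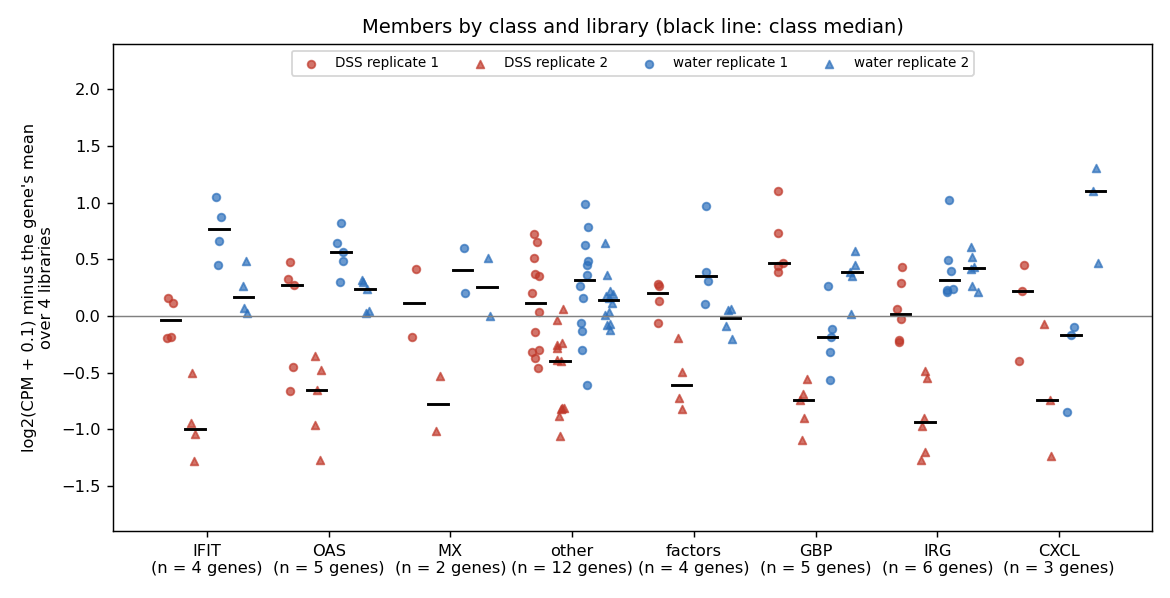
Each point is a gene in a library, as log2(CPM + 0.1) minus the gene's mean over the 4 libraries, by class (DSS red, water blue; circles replicate 1, triangles replicate 2; black lines, class medians). DSS replicate 2 has the lowest median in every class, while the highest median is in water replicate 1 for the IFIT, OAS and MX genes and in DSS replicate 1 for the GBP genes.

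In the DSS pair, replicate 1 exceeded replicate 2 for 37 of 41 members, by a median of 0.86 on the log2 scale, where it did so for 9009 of 18788 tested genes, with a median of -0.025. The exceptions were Oas1a, Oasl1, Ifih1 and Cmpk2. In the water pair replicate 1 exceeded replicate 2 for 9308 of 18788 tested genes, with a median of -0.0033. Water replicate 1 exceeded water replicate 2 for 9 of 11 IFIT, OAS and MX genes, by a median of 0.50, but for 2 of 14 GBP, IRG and CXCL genes, with a median of -0.44. The 6 IRG genes lay near 0 in this ratio, with a median of -0.067 and 2 of them above 0. All 5 GBP genes and all 3 CXCL genes were higher in water replicate 2, with median log2 ratios of replicate 1 over replicate 2 of -0.54 and -1.32.

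**Figure D3:**
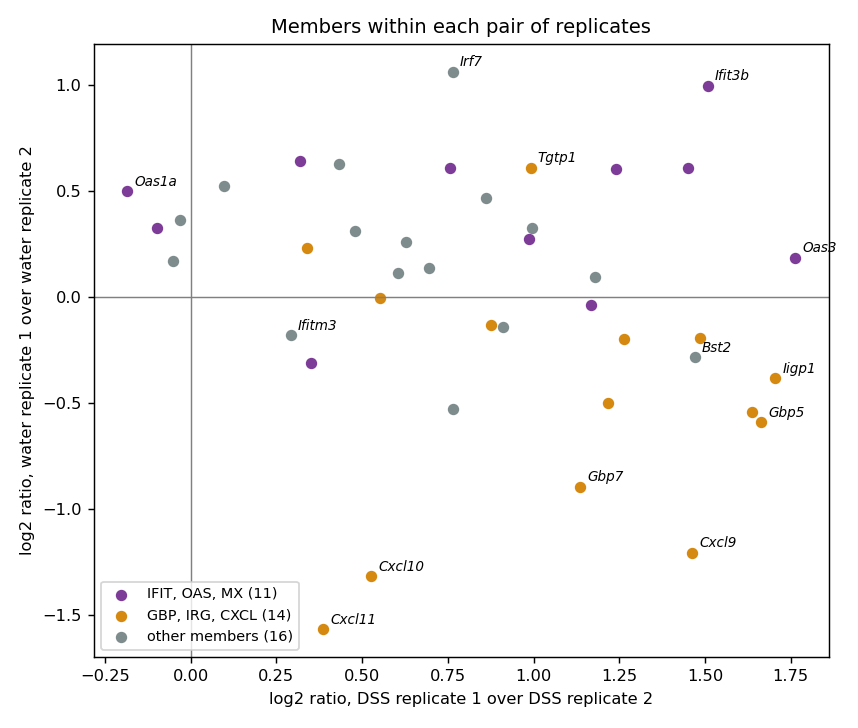
Each point is a member, with the log2 ratio of DSS replicate 1 over DSS replicate 2 on the horizontal axis and of water replicate 1 over water replicate 2 on the vertical axis. Nearly all points lie right of 0 (37 of 41), while on the vertical axis 9 of 11 IFIT, OAS and MX genes lie above 0 and 12 of 14 GBP, IRG and CXCL genes below it.

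The median of each set depended on which DSS library was kept. Without DSS replicate 1 the median log2 fold change was -1.35 for the IFIT, OAS and MX genes and -1.17 for the GBP, IRG and CXCL genes. Without DSS replicate 2 it was -0.49 and -0.026. The count of IFIT, OAS and MX genes below 0 was 8 of 11 without DSS replicate 2 and 11 of 11 without each other library, while that of GBP, IRG and CXCL genes was 8 of 14 without DSS replicate 2 and 14 of 14 without DSS replicate 1.

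Upstream of these genes, the interferons themselves were scarce. Ifng had 71 and 43 reads in DSS replicates 1 and 2 and 16 and 20 reads in water, or 2.64 and 1.22 CPM in DSS and 0.474 and 0.584 CPM in water. Both DSS libraries were above both water libraries, with a log2 fold change of 1.86 (edgeR adjusted p = 0.626, unadjusted p = 0.0597). Ifnb1 had 8 and 42 reads in DSS and 0 and 44 reads in water, so that replicate 2 of each group held nearly all of them. The interferon lambda genes Ifnl2 and Ifnl3 had 0 reads in every library, which allows up to 3 reads in each by counting error alone, and of the 20 ligand genes only Ifnb1 and Ifng passed the filter on low counts.

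Receptors and kinases of the pathway lay mostly above 0. Of 9 receptor and signalling genes, 8 had a log2 fold change above 0, as did 9239 of 18788 tested genes. For 5 of the 9, each DSS library exceeded either water library, an order shown by 20.8% of all tested genes. edgeR, DESeq2 and limma-voom called 0 of the 9. At an unadjusted p under 0.05 edgeR had 1 higher, against 5.06% of all tested genes, and 0 lower, against 3.39%. Jak2, the kinase of the interferon gamma receptor among others, had 149 and 116 CPM in DSS and 61.6 and 84.8 CPM in water (log2 fold change 0.86, edgeR adjusted p = 0.565). Jak1 had 202 and 190.2 CPM in DSS and 91.1 and 152 CPM in water. Ifnar1, Ifnar2 and Ifngr1 had log2 fold changes of 0.63, 0.54 and 0.53, and Ifngr2 and Tyk2 of 0.16 and 0.17.

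The exception was Ifnlr1, the interferon lambda receptor chain of epithelial cells, which had 4.24 and 6.37 CPM in DSS and 10.9 and 7.53 CPM in water, a log2 fold change of -0.79 (edgeR adjusted p = 0.701). The feedback inhibitor gene Socs1 had 14.3 and 9.79 CPM in DSS and 13.5 and 10.6 CPM in water. Ido1 and Nos2, enzymes often induced by interferon gamma, had log2 fold changes of 0.37 and 0.33, with overlapping groups.

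**Figure D4:**
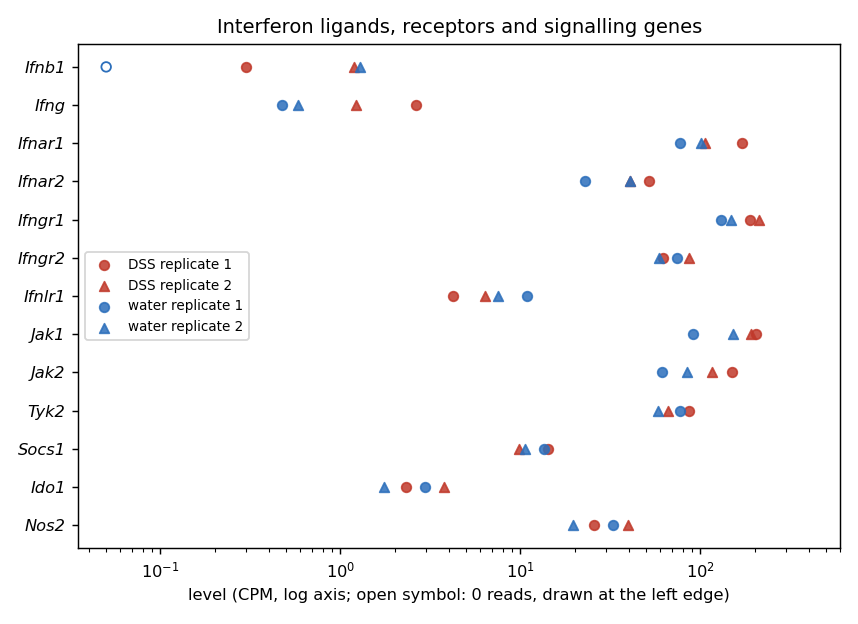
Levels of interferon ligands, receptors, signalling genes and gamma-inducible enzymes in each library (CPM, log axis; DSS red, water blue; circles replicate 1, triangles replicate 2; the open symbol marks 0 reads). Ifng and Jak2 are higher in both DSS libraries and Ifnlr1 is lower, while the groups overlap for Socs1.

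Over 109 other interferon pathway genes, 90 were tested, 45 lay below 0 and 45 above, and their median was 0.037 (log2 fold change). edgeR and limma-voom called 0 of them. At an unadjusted p under 0.05 edgeR had 12 lower, against 3.39% of all tested genes, and 7 higher, against 5.06%. Among the 90, DESeq2 called 2 lower, Oas1g and Gbp2b, and 3 higher, Ifitm1, Ifi205 and Slfn2, all named for these calls after their values were seen. It called 0.895% of genes lower and 1.65% higher. Oas1g had 7.26 and 9.48 CPM in DSS and 56.2 and 26.1 CPM in water (edgeR log2 fold change -2.30, adjusted p = 0.367), and Gbp2b had 5.88 and 2.08 CPM in DSS and 10.02 and 34.95 CPM in water. Ifitm1, the neighbour and relative of Ifitm3, had 175 and 189 CPM in DSS and 22.4 and 54.4 CPM in water (edgeR log2 fold change 2.25, adjusted p = 0.401).

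Markers of several cell types differed between the libraries, and their part in the results above was not tested. Of the 10 T cell and NK cell markers, 9 were higher in each DSS library than in either water library, where 20.8% of all tested genes were. The list summed to 148 and 99.9 CPM in DSS and 27.3 and 71.2 CPM in water. Ncr1 and Klrb1c, which mark NK cells, were at 0 in water replicate 1, and Cd3e, a T cell receptor subunit, had 16.5 and 5.18 CPM in DSS and 0.919 and 2.57 CPM in water. Neutrophil markers summed to 1151 and 1646 CPM in DSS and 40.99 and 154 CPM in water, with Camp at 0 in both water libraries. Of the 9 tested, 8 were apart and higher in DSS, where 20.8% of all tested genes were. S100a8 had 182 and 314 CPM in DSS and 0.741 and 5.99 CPM in water.

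Epithelial markers, of which 9 of 9 lay below 0 (50.8% of all tested genes did), summed to 3218 and 7998 CPM in DSS and 8124 and 6009 CPM in water. DSS replicate 1 had the lowest epithelial sum, and DSS replicate 2 was the lowest library for 32 of 41 interferon-stimulated genes. Any link between these orders was not tested. Monocyte and macrophage markers summed to 903 and 971 CPM in DSS and 762 and 1856 CPM in water, highest in water replicate 2. Csf1r, the macrophage growth factor receptor, had 179 and 174 CPM in DSS and 108 and 306 CPM in water. Dendritic cell markers summed to 134 and 101 CPM in DSS and 24.9 and 54.9 CPM in water, with Siglech at 0 in water replicate 1, and eosinophil markers summed to 110 and 373 CPM in DSS and 11.6 and 81.1 CPM in water, with Il5ra at 0 in water replicate 1. B cell and plasma cell markers, mostly immunoglobulin transcripts, summed to 199828 and 42574 CPM in DSS and 38703 and 30511 CPM in water, and stromal and endothelial markers to 3623 and 7328 CPM in DSS and 2224 and 4451 CPM in water.

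**Figure D5:**
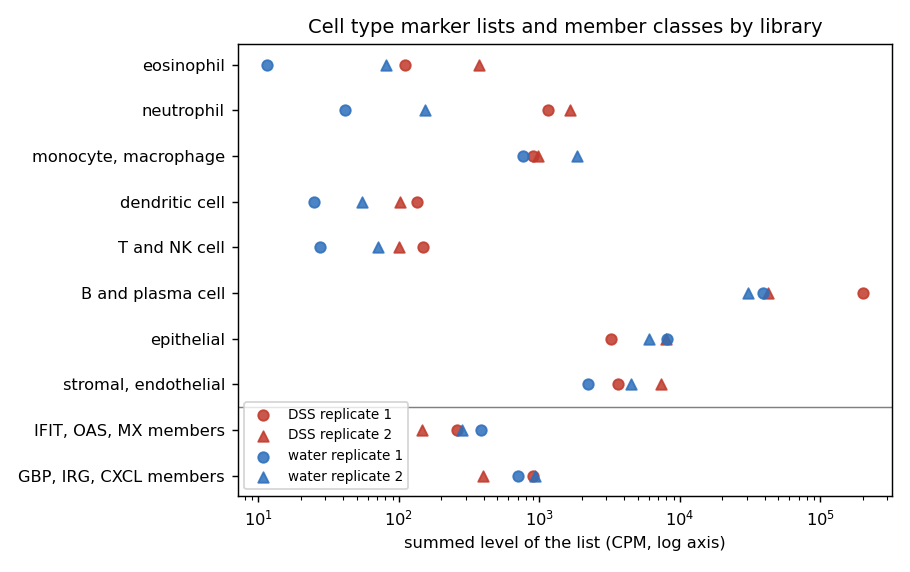
Summed levels of 8 cell type marker lists and of the 2 member sets in each library (CPM, log axis; DSS red, water blue; circles replicate 1, triangles replicate 2). T and NK cell, neutrophil, dendritic cell, eosinophil and B and plasma cell lists are higher in both DSS libraries, while the member sets are lowest in DSS replicate 2.

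Compared per length, as TPM on the union of annotated exons and averaged over the 4 libraries, Ifitm3 was the most abundant member at 700.2 TPM, followed by Bst2 at 160.1 TPM, Irf1 at 132 TPM and Isg15 at 75.7 TPM. Gbp2 and Igtp followed at 63.3 and 62.5 TPM. The IFIT genes were lower, with Ifit1 at 18.4 TPM and Ifit3b at 4.07 TPM, and Cxcl11 was the least abundant member at 0.80 TPM. None of the 4 most abundant members by this scale had both DSS libraries below both water libraries, where 18.7% of all tested genes did so. With 4 genes this says little about abundance.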

How the data were processed

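Per the labels, poly-A RNA of each sample was sequenced, and what the authors deposited is a matrix of unnormalized counts by gene symbol. As tools, the submitters' processing notes list STAR, HISAT2, HTSeq, featureCounts and DESeq2, and as builds mm10 and GRCm38; roles, versions and the annotation used are not stated there. Columns were matched to samples by library name. With edgeR 4.0.16 in R 4.3.3, filterByExpr (10 counts, total of at least 15) kept 18788 genes, holding 99.4% of counts. After TMM scaling, a robust quasi-likelihood test with group as its only term was run, with Benjamini-Hochberg adjustment over all genes tested and calls at 0.05. The standard error is the log2 fold change over the root of the F statistic. DESeq2 1.42.0 and limma-voom (limma 3.58.1) were alternatives, with other scalings, other filters, a replicate block and each library left out. The 2 residual degrees of freedom and a common biological coefficient of variation of 0.432 limit precision. The replicates were not duplicates (chi-square per degree of freedom 432 for the DSS pair and 178 for the water pair). Among counts of 1 to 10, 70.5% to 73.2% were even in each library; the cause was not tested, and counting limits would be too narrow where both mates were counted.

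Lengths, coordinates, exon overlaps and shared 50-base stretches come from GENCODE vM21 on GRCm38, in which 92.8% of symbols matched by name. Promoter sequences come from RefSeq, GRCm38.p6, and printed stretches overlap no vM21 exon. The members, gene lists, marker lists and comparisons were chosen with earlier results of these data known. The naming rule took all 41 members, called pathway genes, a fixed set of ligands, receptors and signalling genes, and defining cell markers. A gene that the naming rule also covers is not reported here.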

Additional observations from a re-analysis of the deposited data

How the results depend on the processing

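No member was called under any alternative except without a count filter, where edgeR called 2 lower, Oas1a (adjusted p = 0.0286) and Tgtp1 (adjusted p = 0.0453), as did 1.23% of genes. The count of all genes called was 3 in the reported fit, 1051 without a count filter, 498 with DESeq2, 0 with limma-voom, and 3 to 196 with a library left out (196 without water replicate 2, 7 without DSS replicate 1, 9 without DSS replicate 2); the cause was not tested. With any library left out, edgeR called 0 members. The median of the IFIT, OAS and MX genes ranged from -1.35 to -0.49 with a library left out, and that of the GBP, IRG and CXCL genes from -1.17 to -0.026. Of 41 members, 24 were lower and 2 higher under each of the 12 alternatives tabulated for single genes, which leave out the crossed pairing. The log2 fold change stayed within 1.5 times its reported value with each library left out for 10 members (Cmpk2, Ifi44, Ifih1, Ifit1, Irgm1, Mx2, Oas1a, Oasl1, Tgtp1 and Usp18) and moved further for 31.

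Direction turned under other settings for Bst2 (-0.014 with upper-quartile scaling, -0.14 with limma-voom) and Gbp2 (-0.15 with limma-voom). With a library left out, log2 fold changes ran from -0.51 to 0.11 for Isg15, -0.34 to 0.58 for Isg20, -0.17 to 0.32 for Irf1, -0.97 to 0.033 for Stat2, -1.37 to 0.086 for Mx1, -0.83 to 0.16 for Oas2, -1.69 to 0.084 for Oas3, -0.91 to 0.57 for Bst2, -1.04 to 0.15 for Zbp1, -1.03 to 0.63 for Gbp2, -1.47 to 0.025 for Gbp3, -0.92 to 0.31 for Gbp4, -0.33 to 1.35 for Gbp5, -0.91 to 0.31 for Gbp7 and -0.29 to 1.07 for Cxcl10.

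The groups share replicate numbers, but nothing in the labels pairs the libraries, and the deviations of same-numbered libraries from their group means were weakly and negatively correlated across genes (-0.14). With the replicate block edgeR called 0 genes and 0 members, and Bst2 and Gbp2 turned to -0.16 and -0.17. With the pairing crossed, an alternative added after seeing the data, 44 genes and 0 members were called.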
